A study of Mus musculus with 22 samples.

Results

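Ear RNA of wild type (WT) mice was compared between 8 and 10 weeks after birth. The 6 libraries whose titles name WT at 8 or 10 weeks were taken from the 22 of the series, 3 at each age, and no library of the mice that lack Socs3 under keratin 5 entered the comparison. The mice were of the strain C57BL/6 and carried no named transgene or agent. RNA came from ear specimens, while the labels give the source as keratinocytes and the tissue as ear. Genes of muscle, cartilage, pigment cells and leukocytes were present in all 6 libraries beside keratins, so the values describe whole ear tissue. The labels name neither sex, hour of collection, separate animals nor pooling. A p-value here therefore reflects the scatter of 3 libraries an age, part of which may be technical. Another 4 WT libraries from 2 weeks are quoted as levels.

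The ear pinna is a sheet of skin on either side of elastic cartilage, with hair follicles, sebaceous glands, fat, vessels, nerves and, towards its base, strips of skeletal muscle. Its epidermis renews itself from basal keratinocytes, which turn off keratins 5 and 14 and turn on keratins 1 and 10 as they move outwards, and it holds Langerhans cells, T cells and melanocytes. Skin also runs a circadian clock, in which CLOCK and BMAL1 drive the Per, Cry and Nr1d genes and the PAR-domain factors DBP, TEF and HLF.

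Levels are FPKM, read fragments normalised to transcript length and to the mapped total of the library, and the 3 values of an age are given in the order of the replicate numbers. Changes are differences in log2(FPKM + 1), 10 weeks minus 8 weeks, where the added 1 understates the change of low genes. Each change is given with the FPKM as deposited and after scaling by the median ratio to a common reference (median-of-ratios), so that a gene is read relative to most others. A gene was tested if it reached 1 FPKM in at least 3 of the 6 libraries (12157 of 21110 genes), and called if its adjusted p (limma, Benjamini-Hochberg over all tested genes) was under 0.05. Libraries are said to lie apart where every library of one age exceeded every library of the other.

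The libraries differed in ways that ran across most genes. Tested genes had a median level of 4.31, 6.02 and 2.95 FPKM in the 8-week libraries and of 8.02, 9.09 and 6.82 FPKM in the 10-week ones. WT at 2 weeks lay higher, between 11.2 and 11.4 FPKM. Genes of cytoplasmic ribosomal proteins held 41.1%, 31.4% and 37.0% of all FPKM at 8 weeks, 25.6%, 21.5% and 28.9% at 10 weeks, and 11.4% to 11.8% at 2 weeks. Both quantities lay apart between 8 and 10 weeks, with an exact two-sided permutation p of 0.1 for each, the smallest that 3 against 3 can give. Of 1204 olfactory and vomeronasal receptor genes, which skin hardly uses, the 8-week libraries listed 50.5%, 73.0% and 56.4% above 0 and the 10-week ones 53.7%, 35.0% and 74.3%. At 2 weeks the range was 3.32% to 5.15%. This share overlapped between 8 and 10 weeks (exact permutation p = 0.8). The Y-linked gene Eif2s3y was listed at 0 in 5 of the 6 libraries and at 1.85 FPKM in replicate 3 of 10 weeks, with Xist between 4.73 and 24.8 FPKM in all 6. Read depth is unknown, and the spacing of low values put it between 0.826 and 1.1 times that of replicate 1 of 10 weeks. The part of these differences in the results that follow was not tested.

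**Figure D1:**
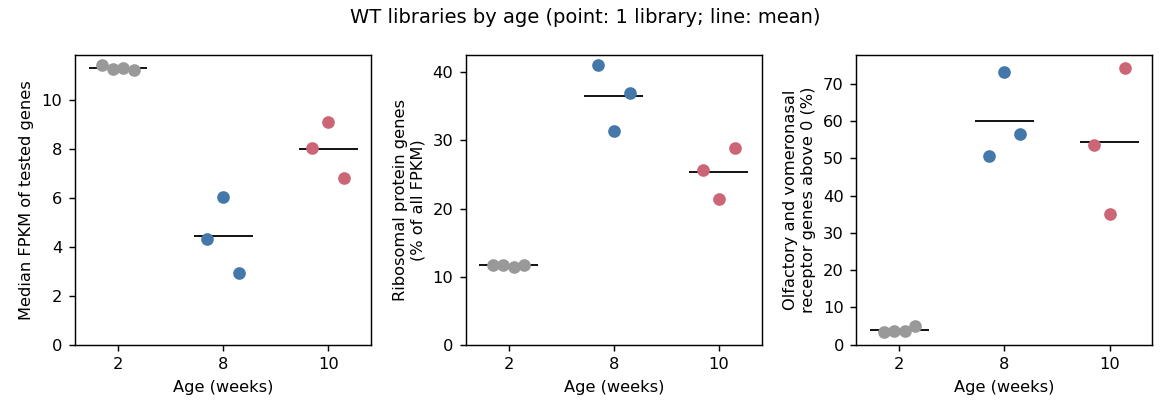
Points are WT libraries at 2, 8 and 10 weeks, lines are means, and the axes give the median FPKM of tested genes, the percentage of all FPKM held by ribosomal protein genes, and the percentage of olfactory and vomeronasal receptor genes above 0. Every library of 10 weeks had a higher median and a lower ribosomal share than every library of 8 weeks, while the receptor share overlapped between these ages and was far below both at 2 weeks.

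As deposited, most of the transcriptome was higher at 10 weeks. The change was above 0 for 87.0% of tested genes, with a median of 0.62. Of the 12157 genes, 2944 were called (24.2%), 2879 higher (23.7%) and 65 lower (0.535%). After scaling the median change was 0.06, and 7 genes were called (0.0576%), 4 higher (0.0329%) and 3 lower (0.0247%), all of them also called as deposited, although 2854 genes (23.5%) had an unadjusted p under 0.05. As deposited 4925 genes did (40.5%), 4796 of them higher (39.5%). The scaled libraries lay apart for 1948 genes higher at 10 weeks (16%) and 1676 lower (13.8%). As deposited these counts were 5357 (44.1%) and 141 (1.16%).

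The fits also estimated the spread differently. As deposited, limma found no variation of the spread between genes beyond a trend with the level, so its prior degrees of freedom were infinite and each gene was judged by the spread typical of its level. After scaling the prior degrees of freedom were 5.56. A call as deposited therefore depends on the size of the change and hardly on a gene's own scatter: 231 genes were called higher and 36 lower although their libraries overlapped. With each gene judged by its own spread alone, a setting chosen after the data were seen, 1 gene was called under either scaling, Mir339. Single libraries moved the count as well: 435, 5002 and 491 genes were called as deposited without replicates 1, 2 and 3 of 8 weeks, and 872, 364 and 1762 without replicates 1, 2 and 3 of 10 weeks. Counts of calls as deposited are therefore given beside the count of members whose scaled libraries lay apart.

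**Figure D2:**
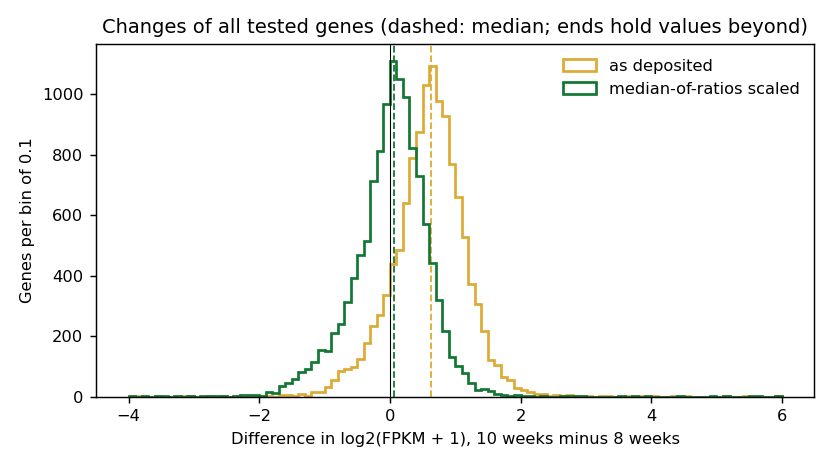
The horizontal axis is the difference in log2(FPKM + 1) between 10 and 8 weeks and the vertical axis the number of tested genes in bins of 0.1, as deposited and after scaling, with the medians dashed. The deposited changes centre on 0.62 and the scaled ones on 0.06.

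Genes of skeletal muscle made up the list with the highest median of those with at least 5 tested members. Of 26 genes for contractile and energy-handling proteins of striated muscle, 20 were tested and 17 were called higher as deposited, against 23.7% of all tested genes, with a median change of 1.89 against 0.62. After scaling none was called, 13 of the 20 (65.0%, against 16% of all genes) lay apart upward and none downward, and the median was 1.28 against 0.06. Atp2a1, the calcium pump of fast muscle, was 6.70, 6.31 and 2.61 FPKM at 8 weeks and 26.6, 77.5 and 50.0 FPKM at 10 weeks. Its change was 3.03 as deposited (SE 0.44, limma adjusted p = 2.86e-09) and 2.39 scaled (SE 0.36, adjusted p = 0.0612). The lowest library of 10 weeks was several times the highest of 8 weeks.

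Acta1, skeletal muscle actin, was 32.3, 38.2 and 7.08 FPKM at 8 weeks and 110, 193 and 251 FPKM at 10 weeks (2.31 scaled, limma adjusted p = 0.0871). Myh1, a fast myosin heavy chain, was 5.84, 6.29 and 6.78 FPKM and then 29.4, 69.9 and 55.4 FPKM (2.09 scaled, adjusted p = 0.0744). Both genes lay apart under either scaling. Des, the muscle intermediate filament desmin, was 4.96, 7.74 and 3.17 FPKM at 8 weeks and 22, 43.5 and 44.4 FPKM at 10 weeks (1.94 scaled, adjusted p = 0.0677). Myh2, another fast myosin, was 2.38, 2.93 and 1.25 FPKM and then 8.92, 22.1 and 16.3 FPKM (1.78 scaled, adjusted p = 0.0733). With the minimum set at 5 FPKM, Atp2a1, Des and Myh2 were called after scaling (adjusted p = 0.0367, 0.0439 and 0.0487).

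The 4 most abundant muscle genes, Tnni2, Tnnc2, Mylpf and Mb, overlapped after scaling, with changes from −0.09 to 0.62. Tnni2, fast troponin I, was 701, 203 and 164 FPKM at 8 weeks and 361, 392 and 617 FPKM at 10 weeks, a change of 0.63 as deposited and −0.09 scaled that was not called. Mb, myoglobin, was 289, 164 and 83.1 FPKM and then 318, 365 and 559 FPKM (1.34 as deposited, 0.62 scaled). Replicate 1 of 8 weeks held the highest 8-week value of both. Pvalb, a calcium buffer of fast fibres, was called higher as deposited (adjusted p = 0.0429) although its libraries overlapped, at 20.6, 2.14 and 6.30 against 12.3, 46.3 and 6.76 FPKM. The 6 untested members, among them Ttn, Neb and Ryr1, reached 1 FPKM in fewer than 3 libraries.

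The summed FPKM of the 26 genes was 1989, 956 and 717 at 8 weeks and 2134, 3081 and 3670 at 10 weeks. Leaving out 1 library at a time left 11 to 19 members called as deposited, the lowest count without replicate 2 of 10 weeks, and the scaled median between 1.12 and 1.54. In bulk tissue, fewer cells of a type and less RNA per cell cannot be told apart. Of the 20 tested genes 11 have transcripts in the shortest length quintile, and with the trend on transcript length removed the scaled median was 1.42. Smooth muscle and pericyte genes were tested in smaller number: 4 of 7 tested were called higher as deposited, where 23.7% of all genes were. Among them was Acta2, smooth muscle actin (9.94, 9.33 and 7.72 against 27.2, 28.8 and 20.5 FPKM). After scaling 2 of the 7 lay apart upward (28.6%, against 16% of all genes). No smooth muscle gene was called without replicate 1 of 8 weeks or replicate 1 or 2 of 10 weeks.

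The region before the start of Acta1 and of Per1, a clock gene described next, is printed with short motifs that a minority of each list holds. The windows are the 250 bases before the first listed start of each gene in RefSeq (GRCm38.p6, not the mm9 build of the FPKM files), 5′ to 3′ on the strand of the gene. In Acta1 (chr8:123894776-123895025, minus strand) capitals mark TATAAA, at bases −7 to −2 from the listed start, and GGAATG, here in the reverse direction at −46 to −41, which TEAD factors recognise. In Per1 (chr11:69098699-69098948, plus strand) they mark the E-box CACGTG, at −166 to −161, that CLOCK and BMAL1 recognise.
Acta1: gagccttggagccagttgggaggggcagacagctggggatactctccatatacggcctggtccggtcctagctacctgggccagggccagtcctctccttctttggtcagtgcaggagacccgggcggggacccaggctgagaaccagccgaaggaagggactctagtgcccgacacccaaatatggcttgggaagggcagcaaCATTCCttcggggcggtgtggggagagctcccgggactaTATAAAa
Per1: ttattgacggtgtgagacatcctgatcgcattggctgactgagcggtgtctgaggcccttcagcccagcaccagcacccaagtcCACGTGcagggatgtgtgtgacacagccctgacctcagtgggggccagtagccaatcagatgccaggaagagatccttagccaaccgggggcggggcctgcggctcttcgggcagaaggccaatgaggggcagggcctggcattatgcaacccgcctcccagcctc
Of the 20 muscle genes with such a window 6 held GGAATG on either strand, or 30%, against 12.6% of 27025 windows. TATAAA was in 4 of the 20 (20% against 13.0%). CACGTG was in 4 of 15 clock genes (26.7% against 6.05%), Bhlhe41, Cry1, Per1 and Tef. The other clock motifs searched were TTATGTAA, in 1 of the 15 (6.67% against 0.862%), and TTANNTAA, in 2 (13.3% against 5.55%). A match is a description of these letters and not a site.

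Genes of the circadian clock were higher at 10 weeks among repressors and output factors, and the activators were not called. All 19 listed genes were tested and 13 were called higher as deposited (median 1.14), against 23.7% of all genes (median 0.62). After scaling 12 of the 19 (63.2%, against 16% of all genes) lay apart upward and none downward (median 0.54 against 0.06). None was called after scaling. Among the PAR-domain factors, Tef was 13.5, 21.6 and 7.95 FPKM at 8 weeks and 41.8, 59.6 and 45.0 FPKM at 10 weeks, a change of 1.78 as deposited (limma adjusted p = 0.00252) and 1.10 scaled (adjusted p = 0.1). Dbp was 16.1, 22.3 and 12.9 FPKM and then 41.7, 53.8 and 54.2 FPKM (1.51 as deposited, 0.82 scaled). For both, every 10-week value was above every 8-week value.

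Among the repressors, Per3 was 1.70, 4.36 and 1.95 FPKM at 8 weeks and 9.05, 13.4 and 8.91 FPKM at 10 weeks (1.69 as deposited, 1.11 scaled). Per1 was 4.33, 4.31 and 2.20 FPKM and then 10.1, 12 and 9.47 FPKM (0.75 scaled). Per2, Cry1 and Cry2 also lay apart upward, by 0.62, 0.54 and 0.81 scaled, as did Nr1d1 and Nr1d2, nuclear receptors that repress Bmal1, by 0.68 and 0.47. Whether activators and repressors differed was not tested. Arntl, which encodes BMAL1, was 6.99, 9.15 and 2.78 FPKM at 8 weeks and 8.11, 9.36 and 4.73 FPKM at 10 weeks, with overlapping libraries and a scaled change of −0.33 (adjusted p = 0.444). Clock and Npas2 also overlapped, at −0.19 and −0.27 scaled.

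The count of clock genes called as deposited depended on single libraries: 1 without replicate 2 of 10 weeks, 3 without replicate 1 or replicate 3 of 8 weeks, 5 without replicate 1 and 9 without replicate 3 of 10 weeks, and 14 without replicate 2 of 8 weeks. The scaled median stayed between 0.52 and 0.66 in these 6 fits.

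**Figure D3:**
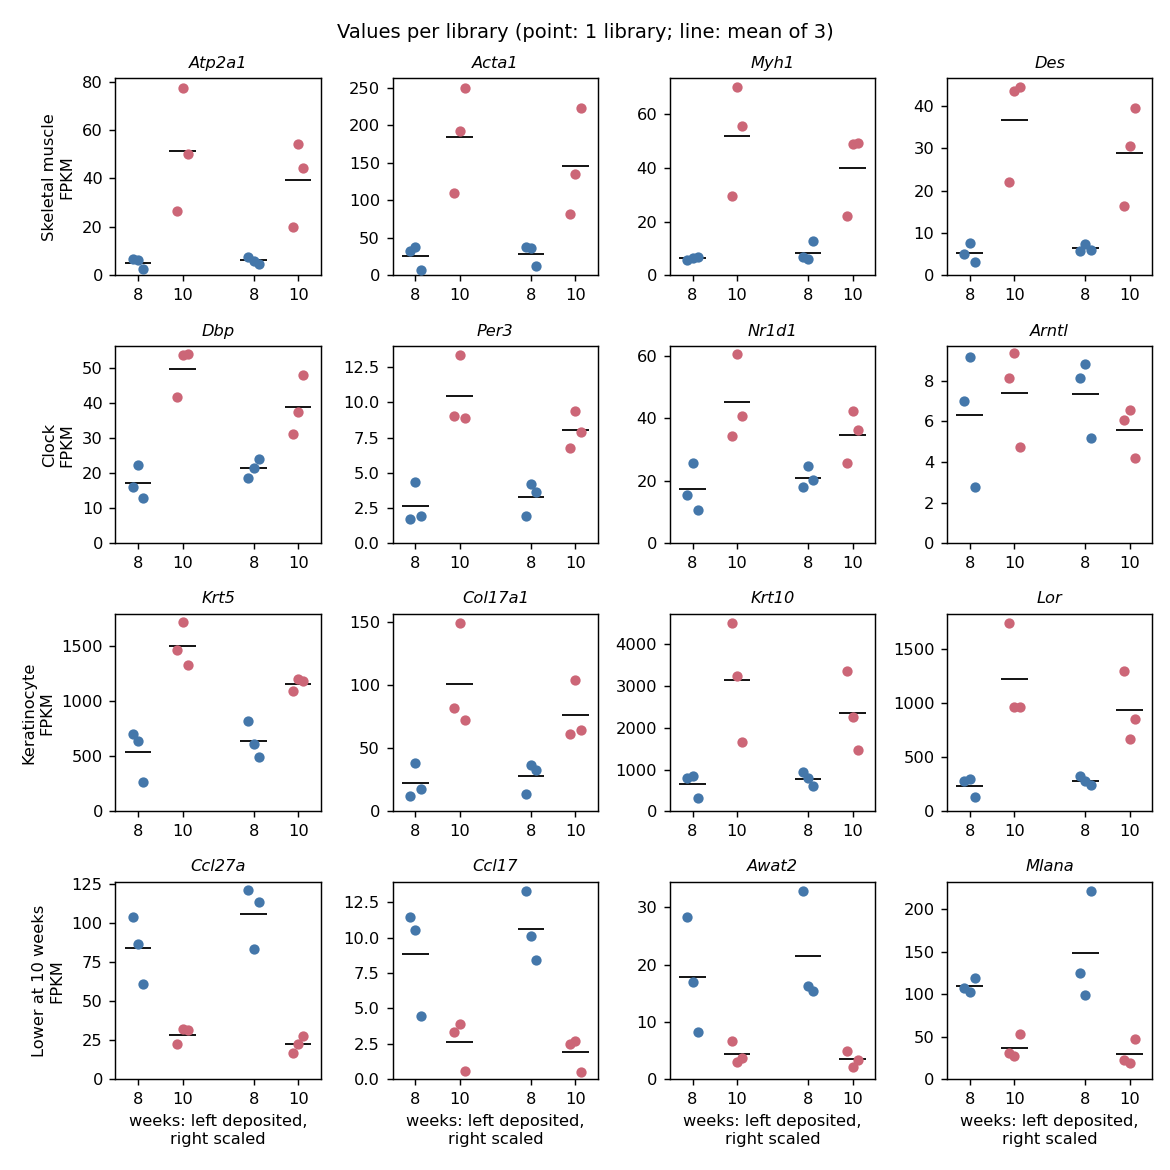
Each panel plots the FPKM of 1 gene in the 3 libraries of 8 weeks and the 3 of 10 weeks, as deposited on the left and scaled on the right, with the mean as a line. The muscle genes, Dbp, Per3, Nr1d1 and the 4 keratinocyte genes lie apart upward, Arntl overlaps, and Ccl27a, Ccl17, Awat2 and Mlana lie apart downward.

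Keratinocyte genes were higher at 10 weeks in part of each layer. Of 14 basal genes 10 were called higher as deposited (median 1.26), where 23.7% of all genes were (median 0.62). After scaling none was called, and 6 lay apart upward (42.9%, against 16% of all genes) and none downward. The scaled median was 0.67, against 0.06 over all genes. Col17a1, a collagen of the hemidesmosome, was 11.8, 38.0 and 17.7 FPKM at 8 weeks and 81.9, 149 and 72.2 FPKM at 10 weeks, a change of 2.20 as deposited (limma adjusted p = 0.000277) and 1.5 scaled (adjusted p = 0.114). Its partner Itgb4, integrin beta 4, was 1.63, 4.10 and 2.65 FPKM and then 12, 24.4 and 10.9 FPKM (2.11 and 1.5). Krt5 was 704, 635 and 261 FPKM and then 1459, 1712 and 1327 FPKM (1.61 and 0.88). Krt14, which pairs with keratin 5 in the same cells, was not called: it was 2671, 1430 and 1905 FPKM at 8 weeks and 3329, 1699 and 1690.1 FPKM at 10 weeks (0.13 and −0.59).

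Of 25 spinous and granular genes 11 were called higher and 1 lower as deposited, against 23.7% and 0.535% of all genes. After scaling none was called. On scaled values 6 lay apart upward and 1 downward (24% and 4%, against 16% and 13.8% of all genes). The scaled median was 0.24, against 0.06 over all genes. Krt10 was 807, 837 and 326 FPKM at 8 weeks and 4503, 3235 and 1657 FPKM at 10 weeks (2.26 as deposited, adjusted p = 0.000765; 1.54 scaled, adjusted p = 0.14). Lor, loricrin of the cornified envelope, was 282, 295 and 130 FPKM and then 1741, 961 and 961 FPKM (2.40 and 1.68). Both lay apart by a wide margin. Krtdap and Rptn, of the same layers, had a lower mean at 10 weeks, with libraries that overlapped as deposited. Krtdap was 16408, 4122 and 5681 FPKM and then 6789, 3127 and 3501 FPKM (−0.79 as deposited, not called). Rptn, repetin, a gene of low level here, was 4.45, 4.19 and 1.96 FPKM and then 2.88, 1.08 and 0.841 FPKM (−0.83, adjusted p = 0.0491).

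Leaving out 1 library at a time changed these counts as well. Of the basal genes 2 to 9 were called higher as deposited, 2 without replicate 2 of 10 weeks, 3 and 4 without replicates 1 and 3 of 8 weeks and 5 without replicate 1 of 10 weeks. Of the spinous and granular genes 3 to 11 were, 3 without replicate 3 of 8 weeks, 6 without replicate 2 and 7 without replicate 1 of 10 weeks. Late cornified envelope and small proline-rich genes depended on replicate 1 of 10 weeks: Sprr1b was 4.07, 0.630 and 1.79 FPKM at 8 weeks and 85.4, 3.79 and 0.499 FPKM at 10 weeks, and without that library its change as deposited was −0.09 in place of 1.58.

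Receptors of the interleukin 17 and 20 families, which keratinocytes carry, were among the higher genes, and 5 of 6 tested were called as deposited. After scaling none was called, and 4 of the 6 lay apart upward (66.7%, against 16% of all genes) and none downward. Il17rc was 5.18, 9.07 and 3.12 FPKM at 8 weeks and 27.9, 25.2 and 23.0 FPKM at 10 weeks, 2.05 as deposited (limma adjusted p = 0.000169) and 1.41 scaled (adjusted p = 0.0677). Il20rb was 7.23, 12.9 and 5.98 FPKM and then 37.6, 45.2 and 25.8 FPKM (1.97 and 1.30). The other 11 of 17 listed genes of these families, Il17a and Il22 among them, reached at most 1.24 FPKM in any of the 6 libraries and were not tested. Of 23 tested genes of the interleukin 6 and STAT3 pathway 9 were called higher, where 23.7% of all genes were. After scaling 5 lay apart upward and 2 downward (21.7% and 8.70%, against 16% and 13.8% of all genes). Socs3, the inhibitor of this pathway that the series is about, was 0.604, 1.36 and 0.930 FPKM at 8 weeks and 2.76, 4.81 and 2.02 FPKM at 10 weeks. Its change was 1.06 as deposited (SE 0.31, adjusted p = 0.00866; exact permutation p = 0.1) and 0.60 scaled (SE 0.25, adjusted p = 0.195). The Socs3 call as deposited was lost without replicate 1 or 3 of 8 weeks or replicate 2 of 10 weeks (0.92, 1.05 and 0.80). Without single libraries 2 to 5 receptor genes and 0 to 14 pathway genes were called higher. Socs3 was 9.71 to 10.3 FPKM in WT at 2 weeks.

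Connective tissue genes were called higher in part as deposited, and after scaling members lay apart in both directions. Of 17 cartilage genes 8 were called higher, among them Col2a1, the main collagen of cartilage (0.531, 2.17 and 2.15 against 7.38, 11.7 and 5.42 FPKM). Of all genes 23.7% were called higher. After scaling 4 cartilage genes lay apart upward and 3 downward (23.5% and 17.6%, against 16% and 13.8% of all genes). The 3 downward were Cilp, Ucma and Mia1. Of 24 fibroblast and collagen genes 10 were called higher. After scaling 2 lay apart upward (8.33%, against 16% of all genes), Serpinh1, a collagen chaperone, and Fn1, fibronectin, and 4 downward (16.7%, against 13.8%), Dcn, Postn, Mfap5 and Dpt. Col1a1 was called higher although its libraries ran from 27.8 to 408 FPKM at 8 weeks and from 180 to 898 FPKM at 10 weeks. Without single libraries 3 to 13 cartilage genes and 0 to 12 fibroblast genes were called, 0 of the latter without replicate 1 of 8 weeks or replicate 2 of 10 weeks.

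Other genes with the largest rises came from no list. Hspb6, a small heat shock protein abundant in muscle, was 3, 5.34 and 2.49 FPKM at 8 weeks and 18.9, 45.5 and 30.6 FPKM at 10 weeks (2.16 scaled, adjusted p = 0.0595). Phospho1, a phosphatase of mineralising matrix, was 1.36, 6.38 and 1.88 FPKM and then 19.9, 30.0 and 18.7 FPKM (2.07 scaled). Ass1, an enzyme of arginine synthesis, was 0.943, 2.56 and 1.29 FPKM and then 9.99, 14.8 and 8.31 FPKM (1.68 scaled). All 3 lay apart. Ucn2, Pou3f1, Ankrd35, Efna3 and Fam57a also lay apart upward, with scaled changes from 1.36 to 2.17 and adjusted p from 0.0595 to 0.103. Rab7 and Krt80 were called higher as deposited with libraries that overlapped after scaling.

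Of the 65 genes called lower at 10 weeks in deposited FPKM, 11 were small RNA genes. The others included several leukocyte genes, Cd52, Cd3d, Cd79a, Lst1, Ms4a7, Klra17 and Xcl1 among them, beside genes of other kinds. Many of these others have transcripts in the shortest length quintile. Ccl27a encodes a chemokine that keratinocytes make and that draws skin-homing T cells. It was 104, 86.6 and 60.7 FPKM at 8 weeks and 22.6, 32.1 and 31.3 FPKM at 10 weeks, and was called under both scalings (−1.5, SE 0.48, limma adjusted p = 0.0152 as deposited; −2.20, SE 0.29, adjusted p = 0.0469 scaled). The scaled call of Ccl27a was lost in each of the 6 fits without 1 library (−2.02 to −2.37) and with the trend on length removed (−1.70). Gm2506, a gene model, was 28.2, 37.7 and 28.2 FPKM and then 5.89, 9.68 and 8.85 FPKM and was also called under both. Ccl17, a chemokine of dendritic cells, was 11.4, 10.5 and 4.50 FPKM and then 3.33, 3.88 and 0.594 FPKM (−1.52 as deposited, adjusted p = 0.002; −2.08 scaled, adjusted p = 0.0677).

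Of 19 chemokine genes 1 was called higher as deposited, Cx3cl1, and 2 lower, Ccl17 and Ccl27a. Over all genes 23.7% were called higher and 0.535% lower. After scaling 1 of the 19 lay apart upward and 6 downward (5.26% and 31.6%, against 16% and 13.8% of all genes). The scaled median was −0.64. Of 14 antimicrobial peptide and alarmin genes 2 were called lower as deposited, Defb6 and Camp. The Camp libraries overlapped under both scalings. After scaling 5 of the 14 lay apart downward (35.7%, against 13.8% of all genes) and none upward (median −1.16). Defb6, a beta defensin, was 2388, 1236 and 1493 FPKM at 8 weeks and 803, 509 and 431 FPKM at 10 weeks (−1.55 as deposited, adjusted p = 0.0216; −2.27 scaled, adjusted p = 0.0965). S100a8 and S100a9, alarmins of neutrophils and stressed epidermis, overlapped.

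The wax synthases Awat1 and Awat2 of sebaceous glands were both called lower. Awat2 was 28.3, 16.9 and 8.24 FPKM at 8 weeks and 6.72, 2.95 and 3.71 FPKM at 10 weeks (−1.69 as deposited, adjusted p = 0.00152; −2.31 scaled, adjusted p = 0.0612). Of 21 sebaceous genes, Dgat2 and Far2 were called higher as deposited and the 2 wax synthases lower, against 23.7% and 0.535% of all genes. After scaling 1 of the 21 lay apart upward and 8 downward (4.76% and 38.1%, against 16% and 13.8% of all genes). The scaled median was −0.33. Mlana, a melanosome protein, was 108, 103 and 119 FPKM and then 30.9, 27.8 and 53.1 FPKM (−1.59 as deposited, adjusted p = 0.0115; −2.29 scaled, adjusted p = 0.0744). Dct and Tyr, 2 enzymes of melanin synthesis, lay apart downward after scaling, and Tyrp1 and Mitf overlapped.

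Immune cell lists differed in whether the scalings gave the same direction. The median of T and NK cell genes was 0.10 as deposited and −0.43 scaled, and that of mast cell genes 0.14 and −0.42. Macrophage genes had a median below 0 under both (−0.06 and −0.69), as had dendritic, B cell and neutrophil genes. After scaling the change was below 0 in 9 of 12 T and NK cell, 19 of 20 macrophage and 10 of 10 mast cell genes, against 5425 of all 12157. As deposited it was above 0 in 8 of the 12, 9 of the 20 and 6 of the 10, against 10577 of all genes. Of 10 dendritic and Langerhans cell genes none was called, and all 10 scaled changes were below 0. After scaling 6 lay apart downward (60%, against 13.8% of all genes). The list median was −0.91 scaled and −0.25 as deposited. H2-Eb1, a class II antigen-presenting chain, was 252, 291 and 196 FPKM at 8 weeks and 124, 93.5 and 122 FPKM at 10 weeks (−1.83 scaled, adjusted p = 0.0744). Cd207, langerin, was 18.3, 18.1 and 11.7 FPKM and then 13.7, 9.82 and 8.89 FPKM (−1.19 scaled, adjusted p = 0.0834), and as deposited its libraries overlapped. The summed FPKM of the dendritic list was 1517, 2398 and 1028 at 8 weeks and 1130, 946 and 1104 at 10 weeks.

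Among 12 tested T and NK cell genes, Cd3d was called lower as deposited (26.9, 12.9 and 8.41 against 6.93, 5.16 and 6.03 FPKM). After scaling 6 of the 12 lay apart downward and 1 upward (50% and 8.33%, against 13.8% and 16% of all genes). Cd3e, the partner of Cd3d in the receptor complex, was 5.01, 6.03 and 1.37 FPKM and then 4.43, 7.81 and 4.88 FPKM, with a scaled change of −0.05. Xcl1, a chemokine of T and NK cells, was 27.5, 34.2 and 22.7 FPKM and then 12, 4.04 and 10.1 FPKM (−2.33 scaled, adjusted p = 0.0677). Of 20 macrophage genes and of 10 mast cell genes none was called. After scaling 6 and 4 lay apart downward (30% and 40%, against 13.8% of all genes). Cd79a of B cells was called lower as deposited, at 2.61, 3.75 and 2.29 against 1.40, 0.819 and 1.26 FPKM.

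Ribosomal protein genes were the list with the lowest scaled median. None of the 83 tested was called lower, and 65 lay apart downward after scaling (78.3%, against 13.8% of all genes). The median change was −0.56 as deposited and −1.28 scaled. Rpl38 was 35836, 9229 and 7542 FPKM at 8 weeks and 6967, 3984 and 7817 FPKM at 10 weeks (−1.17 as deposited, −1.90 scaled, adjusted p = 0.189). Replicate 1 of 8 weeks was the highest by far, and without it the median of the list was −0.23 as deposited and −1.04 scaled. The 1 member called higher was Rpl3l, the paralogue of striated muscle, at 4.32, 4.09 and 0.966 against 7.18, 8.70 and 11.5 FPKM. Of 81 genes of the respiratory chain 3 were called higher as deposited (Cyc1, Atp5a1 and Ndufa4l2), against 23.7% of all genes. Ndufb2 was the 1 called lower, with libraries that overlapped as deposited. After scaling 71 of the 81 changes were below 0 (median −0.96). Libraries lay apart downward for 43 and upward for 4 (53.1% and 4.94%, against 13.8% and 16% of all genes).

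Transcript length and level moved with these values. The median scaled change was −0.39 in the quintile of genes with the shortest transcripts and 0.05, 0.15, 0.17 and 0.12 in the others, and −0.30 in the quintile with the highest mean FPKM. Of the ribosomal protein genes 74.7% have transcripts in the shortest quintile, as have 72.8% of the respiratory chain, 85.7% of the antimicrobial and 60.0% of the dendritic genes, but none of the clock genes. With the trend on length removed, the scaled medians were −0.87, −0.46, −0.56 and −0.67 for these 4 lists and 0.42 for the clock. The melanocyte median was −1.06, against −0.91 with the trend kept. Of the T and NK cell genes 50% are in the shortest quintile, and their median was −0.13, against −0.43 with the trend kept. For chemokine and macrophage genes, with 63.2% and 60.0% in that quintile, the medians were −0.47 and −0.57, against −0.64 and −0.69. Mast cell and sebaceous medians moved the other way, to −0.58 and −0.40 from −0.42 and −0.33.

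**Figure D4:**
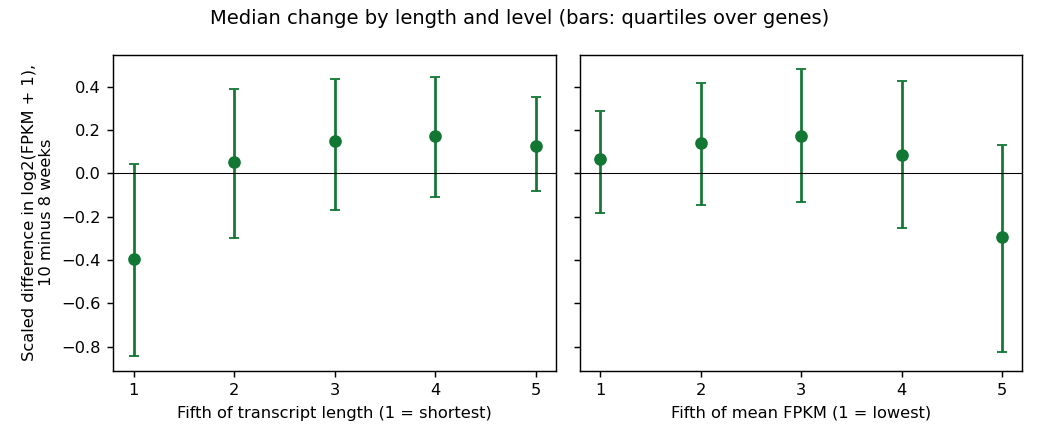
The vertical axis is the scaled difference in log2(FPKM + 1), with points at the median and bars at the quartiles over genes, by quintiles of transcript length on the left and of mean FPKM on the right. The quintile of shortest transcripts has a median of −0.39 and that of highest level −0.30, while the others lie between 0.05 and 0.17.

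Genes often taken as references did not agree in direction. Actb, cytoplasmic actin, was 18.8, 89.2 and 64.6 FPKM at 8 weeks and 174, 276 and 135 FPKM at 10 weeks (1.94 as deposited, 1.22 scaled). B2m, the light chain of class I molecules, was 1328, 835 and 669 FPKM and then 626, 581 and 527 FPKM (−0.65 and −1.37). Of 19 such genes 6 were called higher as deposited, where 23.7% of all genes were. After scaling 3 lay apart upward and 3 downward (15.8% each, against 16% and 13.8% of all genes).

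**Figure D5:**
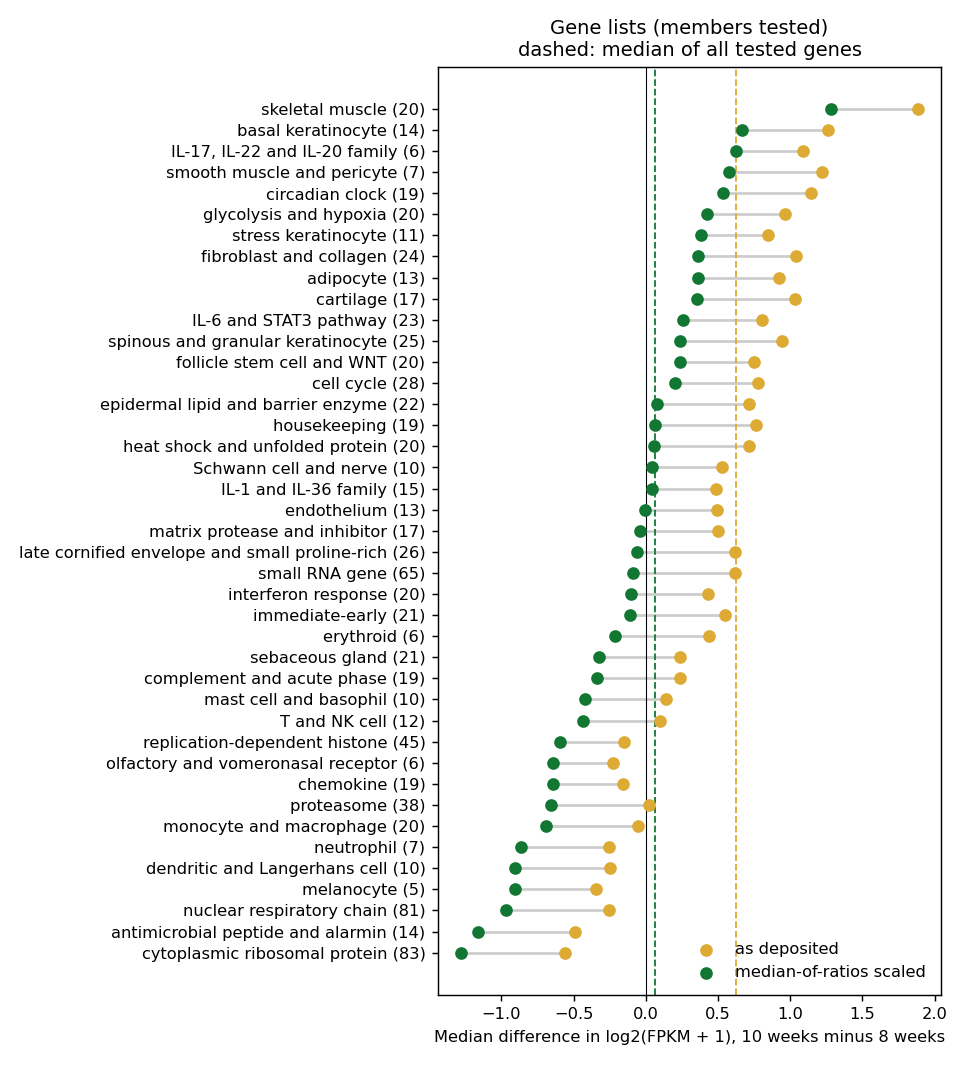
Each row is a gene list with at least 5 tested members (number in brackets), with its median difference in log2(FPKM + 1) as deposited and after scaling, and dashed lines at the medians of all tested genes, 0.62 and 0.06. Skeletal muscle is highest at 1.89 and 1.28 and ribosomal protein genes lowest at −0.56 and −1.28.

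The 4 genes called higher under both scalings were all small RNA genes listed at 0 in every library of 8 weeks. MicroRNAs silence target messages through their seed, bases 2 to 8. These libraries were made with TruSeq RNA chemistry and not from size-selected small RNA, so no value is a measure of a mature miRNA. Mir24-1 was 1148, 2008 and 290 FPKM at 10 weeks, Mirlet7c-2 was 173, 353 and 43.8 FPKM, Mir339 was 41.2, 48.0 and 41.7 FPKM, and the snoRNA gene Snora43 was 42.4, 69.3 and 77.3 FPKM. Vaultrc5, a vault RNA gene, was called lower, at 10.8, 7.81 and 4.14 against 0, 0 and 0.866 FPKM. The 4 higher genes reached the minimum level for testing only in 10-week libraries, and Vaultrc5 only in 8-week ones. With every 8-week value at 0, the 4 had no spread at that age. In WT at 2 weeks the means of Mir24-1, Mirlet7c-2, Mir339 and Snora43 were 1165, 121, 0 and 58.0 FPKM. A listed 0 can be a failed estimate: of 56 small RNA genes at 20 FPKM or more in at least 3 libraries, 37 were listed at 0 in another library, while among all 2852 genes at that level 38 were, so that 1 was of another kind. Small RNA genes often lie inside other genes, and the libraries do not mark strand.

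The mature sequences of these miRNAs are printed because 2 of the genes share a seed. They are from RefSeq (GRCm38.p6), 5′ to 3′, with the seed in capitals. Mir24-1 lies at chr13:63301208-63301275 (plus strand), Mir339 at chr5:139369650-139369745 (minus strand) and Mirlet7c-2 at chr15:85706603-85706697 (plus strand). Mirlet7b starts 621 bases after Mirlet7c-2 ends.
mmu-miR-24-3p: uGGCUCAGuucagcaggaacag
mmu-miR-24-1-5p: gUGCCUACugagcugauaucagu
mmu-miR-339-5p: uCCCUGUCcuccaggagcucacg
mmu-miR-339-3p: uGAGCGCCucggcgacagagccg
mmu-let-7c-5p: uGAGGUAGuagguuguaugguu
mmu-let-7c-2-3p: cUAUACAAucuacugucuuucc
mmu-let-7b-5p: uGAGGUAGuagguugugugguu
The let-7c and let-7b 5p forms share GAGGUAG, the seed of the let-7 family. Mirlet7b was 227, 137 and 0 FPKM at 8 weeks and 450, 350 and 835 FPKM at 10 weeks, called as deposited and not after scaling (adjusted p = 0.231). Of 496 small RNA genes 65 were tested. As deposited 27 were called higher and 11 lower, against 23.7% and 0.535% of all genes. After scaling 6 lay apart upward and 8 downward (9.23% and 12.3%, against 16% and 13.8% of all genes).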

How the data were processed

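Total RNA was extracted with TRIzol and made into unstranded TruSeq libraries, read as 50-base single ends, per the labels' protocols. The authors deposited FPKM per gene, 1 file per library, with TopHat2 2.1.0, Cufflinks and mm9 named in the submitters' processing notes. Cufflinks' version is not given in the sources used here. FPKM keeps no read counts, so no count test was run.

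Genes reaching 1 FPKM in 3 or more libraries were analysed on log2(FPKM + 1) with limma 3.58.1 (R 4.3.3, empirical Bayes with a trend), as deposited and after median-of-ratios scaling, with Benjamini-Hochberg adjustment over 12157 genes and a threshold of 0.05. As deposited the prior degrees of freedom were infinite. Small quantities were compared with exact two-sided permutation tests. Genes named are Socs3, the 10 largest called rises and falls whose libraries lie apart (filled up by the smallest unadjusted p, and passing over gene models, receptor and small RNA genes), and per list the 2 members called with the strongest change, or the 2 most abundant where none was called. Not all are described, and other genes named, the small RNA genes, Gm2506, Arntl, Krt14, Krtdap, Tnni2, Cd3e, Actb, B2m and Rpl38 among them, were chosen after their values were seen. Members and lists were chosen with earlier results of these data known. On simulated libraries with independent noise the fit recovered 32% of log2 changes of 2 as deposited and 78% scaled. Of log2 changes of 1 it recovered 1% as deposited and 14% scaled, so most changes of that size would not be called. Alternatives covered pseudocount, minimum level, scaling, samples fitted, weights, replicate block, length and left-out libraries.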

Additional observations from a re-analysis of the deposited data

How the results depend on the processing

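As deposited, 2944 genes were called, 2879 higher and 65 lower. Without a minimum level 2 were called (2 higher, 0 lower), at 5 FPKM 1652 (1613 and 39), with all 22 libraries 4727 (4635 higher), with the 10 WT libraries 5789 (5656 and 133), with array weights 6656 (6073 and 583), and with upper-quartile scaling 7 (4 and 3). With the length trend removed 41 were lower. After scaling 7 were called, 4 higher and 3 lower. A pseudocount of 0.1 left 1 lower, no minimum 3 (2 and 1), 5 FPKM 22 (15 and 7), all 22 libraries 1092 (270 and 822), the 10 WT libraries 2487 (1159 and 1328), weights 118 (60 and 58), no small RNA genes 1 (0 and 1), and the length trend 4 (0 lower). Leaving out single libraries gave 364 to 5002 calls as deposited (350 to 4950 higher, 14 to 52 lower) and 5 to 17 scaled (4 to 14 and 1 to 4). The cause of these shifts was not tested.

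Settings chosen after the data were seen gave 1 call (1 higher, 0 lower) under either scaling with each gene's own spread, 32 scaled (15 and 17) with robust moderation, and 426 (392 and 34) as deposited and 10 (7 and 3) scaled without replicate 3 of 8 weeks and replicate 2 of 10 weeks. Whether replicate numbers pair the libraries could not be decided. As deposited, deviations from the age mean correlated at 0.319, 0.269 and −0.137 between libraries of the same number. Replicate 3 of 8 weeks correlated most with replicate 2 of 10 weeks (0.298). Deviations within an age depend on each other, which limits what these correlations show. With the replicate block 5274 genes were called as deposited (5190 higher) and 75 scaled (26 and 49).

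The difference in the share of receptor genes above 0 (−5.68 percentage points) ran from −15.7 to 3.99 without single libraries, above 0 without replicate 2 of 8 weeks (0.844) and of 10 weeks (3.99). Sprr1b reversed without replicate 1 of 10 weeks and ran from −0.0866 to 2.84 as deposited and from −0.562 to 2.17 scaled. Il1f8 scaled ran from −0.0582, without replicate 1 of 10 weeks, to 1.09, without the 2 libraries named above. Stfa2 was 0.00956 as deposited with array weights. The number of libraries, 3 at each age, and the unknown read depth limit all values.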
